A study of Mus musculus with 10 samples.

Results

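Brain mRNA of 10 genes, grouped here as homeostatic astrocyte genes, was measured in Slc20a2-HO mice given FTY720 or placebo, and 9 of the genes were compared between the treatments and between mice with the digits 3 and 1 in their names. The members were chosen by gene name: Slc1a2, Slc1a3, Glul, Aqp4, Slc4a4, Slc7a10, Acsbg1, Aldh1l1, Fgfr3 and Gdf15, which are 10 of the 54532 genes in the count table. Of the 10, 9 had enough counts to be among the 17665 genes tested; Gdf15 did not.

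Astrocytes take up the glutamate that neurons release, convert it to glutamine, and hand the glutamine back. They also move water, potassium and bicarbonate between synapses and blood vessels, and they supply lipids and one-carbon units. Bergmann glia are the specialized astrocytes of the cerebellar cortex and wrap Purkinje cell synapses. Of the members, Slc1a2 and Slc1a3 encode the main glutamate transporters of astrocytes, with Slc1a3 known for its high level in Bergmann glia, and Glul encodes glutamine synthetase. Aqp4 encodes the water channel of astrocyte endfeet, and Slc4a4 a sodium-bicarbonate cotransporter. Slc7a10 encodes an exchanger of small neutral amino acids such as D-serine and glycine. Acsbg1 encodes an acyl-CoA synthetase that activates long-chain fatty acids, Aldh1l1 a folate enzyme used as a pan-astrocyte marker, and Fgfr3 a receptor for fibroblast growth factors. Gdf15 encodes a stress-induced circulating cytokine and is not an astrocyte marker; the Bergmann glia gene with a similar name is Gdf10.

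All 10 mice were Slc20a2 homozygous (HO) knockouts of the Slc20a2 tm1a(EUCOMM)Wtsi line, which lack a phosphate transporter and develop brain calcification, and wild-type brain RNA was not analysed here. FTY720, a modulator of sphingosine-1-phosphate receptors that retains lymphocytes in lymphoid organs, was given by intraperitoneal injection to 6 mice at 0.5 mg/kg, 3 times a week for 12 weeks from the age of 1.5 months. The 4 placebo mice received the solvent, dimethyl sulfoxide, on the same schedule. Each perfused brain was divided into equal parts, one for RNA and the other for fixation, and the plane of the division is not given in the sources used here. The FTY720 mice were F1-622, F1-624, F1-918, F3-609, F3-612 and F3-908, and the placebo mice were P3-612, P1-623, P3-904 and P3-907. The digit after the group letter, which is 3 in 6 mice and 1 in 4, is not explained in the labels or the paper.

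The libraries held between 14772745 and 18303981 counted fragments per mouse. Expression is given in CPM (counts scaled to library size with TMM factors) for comparisons between mice and in FPKM (scaled to library size and gene length, as deposited) for comparisons between genes. The targeted gene, Slc20a2, was still counted, with 89 to 294 fragments per mouse, and a whole-gene count does not check the allele. It was at 6.31 to 9.43 CPM in the digit 1 mice and 11.5 to 17.0 CPM in the digit 3 mice, and the cause was not tested. The digits differed in region markers: 15 of 15 cerebellum markers were higher and 11 of 12 cortex and hippocampus markers were lower in the digit 3 mice at an adjusted p under 0.05. Summed over the list, the cerebellum markers lay between 2706 and 3409 CPM in the digit 3 mice and between 904.9 and 1049.9 CPM in the digit 1 mice. Treatment was not balanced over the digits, since the digit 3 mice were 3 FTY720 and 3 placebo and the digit 1 mice 3 FTY720 and 1 placebo.

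On the FPKM scale, which allows levels of different genes to be compared, the 10 genes covered a wide range. Glul was the highest, at 409 ± 61.1 FPKM (SD, n = 10), followed by Slc1a2 at 170 ± 26.2 FPKM and Slc1a3 at 71.0 ± 5.60 FPKM. These ranks held in 10 of 10 mice, and the ranges of these genes did not overlap. Acsbg1 was at 52.2 ± 5.56 FPKM, Aqp4 at 37.5 ± 8.79 FPKM, Slc4a4 at 25.6 ± 5.93 FPKM and Fgfr3 at 20.1 ± 2.59 FPKM. Acsbg1 exceeded Aqp4 and Aqp4 exceeded Slc4a4 within each of the 10 mice, although the ranges over mice overlapped. Slc4a4 exceeded Fgfr3 in 7 of 10 mice, and Fgfr3 exceeded Aldh1l1 in 9 of 10. Aldh1l1, at 15.0 ± 2.93 FPKM, and Slc7a10, at 14.0 ± 1.71 FPKM, could not be ordered, since Aldh1l1 was the higher in 5 of 10 mice. Gdf15 was at the floor, with 1, 3 and 4 counts in F1-622, F1-624 and F1-918, 0 in F3-609, F3-612 and F3-908, and 6, 4, 3 and 2 in P3-612, P1-623, P3-904 and P3-907. With 3 counts as the floor per library, no fold is given for Gdf15, and it was left out of the main fits. Exact permutation tests of its log2 CPM gave p = 0.081 for FTY720 over placebo and p = 0.233 for digit 3 over digit 1, at counts too low to read.

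**Figure D1:**
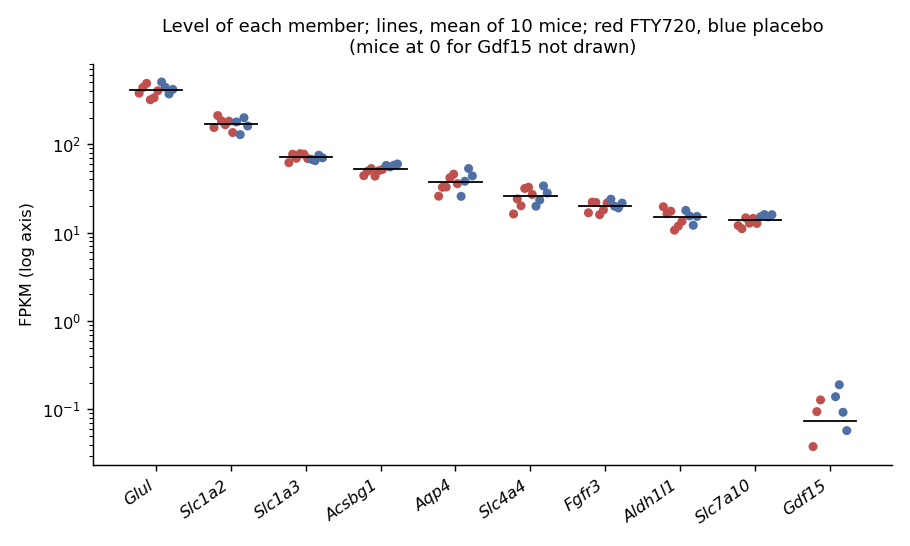
FPKM of each gene in each of the 10 mice on a log axis (red, FTY720; blue, placebo), with the mean of the 10 mice as a line. Glul, Slc1a2 and Slc1a3 stand above the others without overlap, and Gdf15 lies near 0, with 3 mice at 0 that are not drawn.

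A separate list of 30 astrocyte identity genes that holds no member was followed beside the members. Their presence in brain RNA does not test whether the members act as astrocyte genes. All 30 were tested and none was at 0 in every mouse; their summed level was between 5755 and 6729 CPM. In bulk tissue, fewer astrocytes and less RNA per astrocyte cannot be told apart. Reads of Slc7a10 are uncertain: its gene (ENSMUSG00000030495, GRCm38 chromosome 7 from 35186385 to 35201114, plus strand) shares 1088 bases at its 3′ end with Lrp3, a lipoprotein receptor-related gene on the other strand that had up to 1691 counts, and the strand setting of the counting is not given in the sources used here. Glul (ENSMUSG00000026473, chromosome 1 from 153899944 to 153909723, plus strand) overlaps Teddm2, which had at most 53 counts. The genes that overlap Slc1a2, Slc1a3, Aldh1l1 and Fgfr3 had at most 62 counts each, and Aqp4, Acsbg1, Slc4a4 and Gdf15 overlap no other annotated gene in the table.

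The sequence upstream of the start site is shown for the 5 genes that differed between the groups compared below and that have a promoter in the RefSeq table (GRCm38.p6, 250 bases up to the base before the start, 5′ to 3′ on the gene's strand). Capitals mark the half-site of NFI factors, TTGGC on either strand (printed as GCCAA where it lies on the other strand). NFI proteins are transcription factors of astrocyte development.
Acsbg1, chr9:54661886-54662135, minus strand: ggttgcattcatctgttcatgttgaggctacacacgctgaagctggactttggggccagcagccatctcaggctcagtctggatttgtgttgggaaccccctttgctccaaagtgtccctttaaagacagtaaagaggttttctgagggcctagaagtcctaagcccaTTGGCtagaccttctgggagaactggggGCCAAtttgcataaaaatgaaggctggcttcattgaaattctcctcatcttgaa
Slc7a10, chr7:35186135-35186384, plus strand: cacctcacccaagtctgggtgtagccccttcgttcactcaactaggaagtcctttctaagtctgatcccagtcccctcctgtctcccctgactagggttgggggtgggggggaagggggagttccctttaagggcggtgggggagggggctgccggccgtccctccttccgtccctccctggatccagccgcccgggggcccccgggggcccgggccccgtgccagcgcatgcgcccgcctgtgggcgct
Slc4a4, chr5:88887010-88887259, plus strand: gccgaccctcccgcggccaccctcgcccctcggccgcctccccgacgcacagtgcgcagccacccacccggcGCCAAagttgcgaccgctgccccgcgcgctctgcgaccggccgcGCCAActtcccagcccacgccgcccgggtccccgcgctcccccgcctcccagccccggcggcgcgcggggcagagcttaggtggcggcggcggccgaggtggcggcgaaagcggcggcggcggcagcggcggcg
Aldh1l1, chr6:90550543-90550792, plus strand: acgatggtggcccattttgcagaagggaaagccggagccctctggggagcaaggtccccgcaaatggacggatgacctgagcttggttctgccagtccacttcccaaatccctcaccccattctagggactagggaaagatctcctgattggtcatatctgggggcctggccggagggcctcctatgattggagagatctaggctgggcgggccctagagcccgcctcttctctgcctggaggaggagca
Glul, chr1:153899679-153899928, plus strand: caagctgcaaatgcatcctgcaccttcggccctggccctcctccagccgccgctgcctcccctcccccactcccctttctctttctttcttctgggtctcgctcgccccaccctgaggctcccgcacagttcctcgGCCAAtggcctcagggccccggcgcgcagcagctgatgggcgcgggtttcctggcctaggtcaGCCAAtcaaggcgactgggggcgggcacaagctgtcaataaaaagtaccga
For Slc4a4, the table has another promoter within the gene, not printed, with 1 half-site and 0 matches to the other motifs named here. The printed Aldh1l1 and Slc4a4 windows also lie within the annotated spans of their genes, which start at 90486427 and 88886818. The Acsbg1, Slc4a4 and Glul windows printed hold 2 half-sites each, and the Slc7a10 and Aldh1l1 windows hold 0. A half-site occurs in 41.6% of the 32536 promoter windows of the same length, so its presence is common. The RBPJ motif TGGGAA (21.6% of windows, either strand) was found once in the Acsbg1, Slc4a4 and Aldh1l1 windows. The STAT motif TTCNNNGAA (7.04% of windows) was found once in the Acsbg1 window, and the SOX motif ACAAAG (16.5% of windows) in none of the 5. These matches did not overlap each other, and the Slc7a10 window held no match to any of the 4 motifs. Aqp4, the remaining gene that differed, has no entry in the table.

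Whether FTY720 changed astrocyte expression was examined first. Acsbg1 and Slc7a10 were lower in FTY720-treated than in placebo-treated mice, in each case with no overlap between the groups, and the other 7 tested genes did not pass the test. The study used an unadjusted p under 0.05 and kept protein-coding genes. At that p, 2 of 9 members were called, both lower, against 2.61% of all tested genes in either direction and 1.57% in the lower direction. Of the 17665 tested genes 14784 were protein-coding, as were the 9 members, and 386 of the protein-coding genes passed in either direction. The groups did not overlap, with FTY720 lower, for 2 of 9 members and for 0.368% of all tested genes. After adjustment over all genes no gene passed with edgeR (smallest adjusted p = 0.99992, with 461 genes at an unadjusted p under 0.05) or with DESeq2 (550 at an unadjusted p under 0.05). Of the 9 log2 fold changes 7 were below 0, with a median of -0.12, beside a median of -0.0030 over all 17665 genes.

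Acsbg1 (ENSMUSG00000032281, chromosome 9 from 54604877 to 54661870, minus strand) was at 160.0, 180.2 and 192.8 CPM in F1-622, F1-624 and F1-918 and at 157.2, 181.3 and 189.4 CPM in F3-609, F3-612 and F3-908. In the placebo mice it was at 201.8, 210.6, 209.6 and 218.8 CPM in P3-612, P1-623, P3-904 and P3-907. The 6 FTY720 mice all lay below the 4 placebo mice, and the digits lay side by side within each group. The means were 176.8 ± 14.9 (SD, n = 6) and 210.2 ± 6.95 CPM (n = 4), a log2 fold change of -0.25 ± 0.0936 (SE, 95% interval -0.45 to -0.05; unadjusted p = 0.0202, adjusted p = 0.99992 in edgeR). A two-sided exact permutation test gave p = 0.00952, where 0.00476 is the smallest that 210 assignments can give. The call was lost without P3-907 and without a filter on low counts, where the unadjusted p was 0.0626 in edgeR in both cases.

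Slc7a10 was at 25.5, 23.6 and 31.4 CPM in F1-622, F1-624 and F1-918 and at 27.1, 30.6 and 27.2 CPM in F3-609, F3-612 and F3-908. The placebo values were 34.2, 32.4, 32.0 and 34.2 CPM in P3-612, P1-623, P3-904 and P3-907. The highest FTY720 mouse, F1-918 (523 counts), was close to the lowest placebo mouse, P3-904 (554 counts), and the groups did not overlap. The log2 fold change was -0.27 ± 0.106 (SE, 95% interval -0.50 to -0.04; unadjusted p = 0.0256, adjusted p = 0.99992 in edgeR), with an exact permutation p of 0.00952. The call was lost without F1-624 (unadjusted p = 0.0602 in edgeR), P3-612 (unadjusted p = 0.0590) or P3-907 (unadjusted p = 0.0647), without a filter on low counts (unadjusted p = 0.0693), and with a trend on gene length removed from each library (unadjusted p = 0.147). Lrp3, which overlaps it, had a log2 fold change of -0.23 ± 0.137 (unadjusted p = 0.122 in edgeR) over all 10 mice, -0.30 ± 0.110 with the digit as a covariate (unadjusted p = 0.0177) and -0.29 ± 0.124 in the digit 3 mice (unadjusted p = 0.0421), and its part in the Slc7a10 value was not tested.

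The glutamate genes did not pass the test over all 10 mice. The mean of Slc1a2 was 2278 ± 346.9 CPM (SD) in the 6 FTY720 mice and 2217 ± 394.7 CPM in the 4 placebo mice, and its log2 fold change of 0.04 had a 95% interval from -0.27 to 0.35 (unadjusted p = 0.788 in edgeR). For Slc1a3 the means were 620.2 ± 54.8 and 600.6 ± 35.2 CPM, and the log2 fold change of 0.05 had an interval from -0.16 to 0.26 (unadjusted p = 0.642 in edgeR). For Glul they were 1318 ± 218.2 and 1458 ± 194.1 CPM, and the log2 fold change of -0.15 had an interval from -0.44 to 0.15 (unadjusted p = 0.308 in edgeR). Of the transport genes, Aqp4 had a log2 fold change of -0.18 (interval -0.60 to 0.25), which ranged from -0.33 without P1-623 to -0.015 without P3-904 when 1 mouse was left out, and Slc4a4 one of -0.06 (interval -0.50 to 0.38). Fgfr3 was at -0.12 (interval -0.40 to 0.15) and Aldh1l1 at -0.03 (interval -0.42 to 0.35). When 1 mouse was left out, Glul ranged from -0.22 to -0.057 and Fgfr3 from -0.17 to -0.052.

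**Figure D2:**
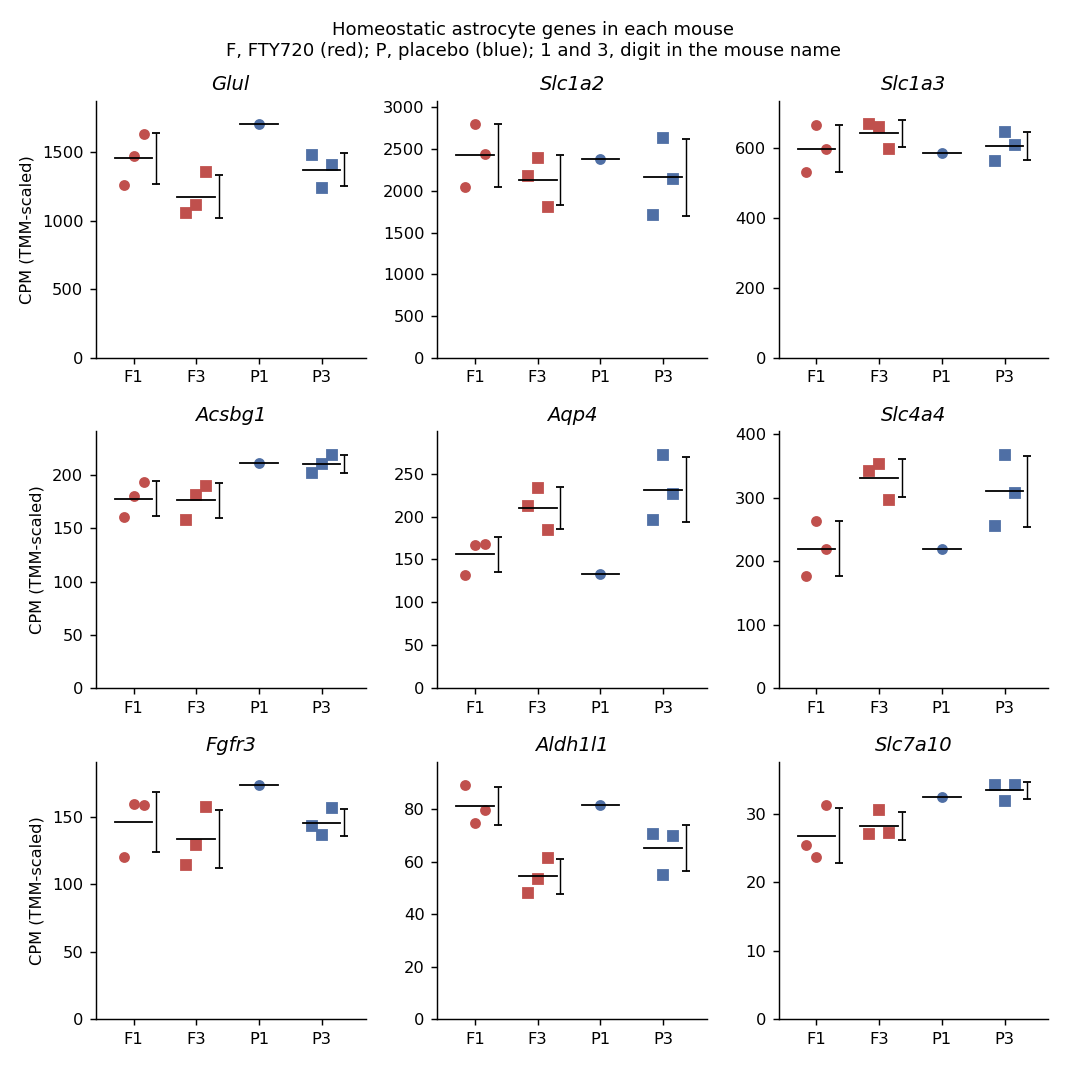
CPM of the 9 tested genes in each mouse, each axis starting at 0, for FTY720 mice with the digit 1 (F1) and 3 (F3) and placebo mice with the digit 1 (P1) and 3 (P3); lines are means and bars 1 SD, where there is more than 1 mouse. Acsbg1 and Slc7a10 are lower in both F columns than in both P columns, while Aqp4, Slc4a4 and Aldh1l1 follow the digit.

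With the digit as a covariate, the log2 fold changes for FTY720 were -0.25 ± 0.0878 for Acsbg1 (unadjusted p = 0.0132, adjusted p = 0.354 in edgeR) and -0.25 ± 0.102 for Slc7a10 (unadjusted p = 0.0281, adjusted p = 0.365). Glul passed the unadjusted criterion in this fit as well, at -0.23 ± 0.103 (unadjusted p = 0.0475, adjusted p = 0.391 in edgeR). These 3 of 9 members, all lower, stand beside 7.79% of all tested genes called lower in this fit. Aqp4 moved to -0.02 (interval -0.29 to 0.26), Slc4a4 to 0.06 (interval -0.21 to 0.34) and Aldh1l1 to -0.18 (interval -0.42 to 0.06). Within the digit 3 mice alone, 3 of each group, Acsbg1 was at -0.25 ± 0.107 (unadjusted p = 0.0440, adjusted p = 0.654 in edgeR) and was the 1 member called, beside 4.49% of all genes called lower. Slc7a10 was at -0.24 ± 0.116 (unadjusted p = 0.0736 in edgeR). For both genes the groups still did not overlap, and the exact permutation p was 0.1, the smallest that 3 against 3 can give. The difference of the FTY720 effect between the digits was tested as an interaction and passed for 0 of 9 members, at an adjusted p under 0.05 and at an unadjusted p under 0.05 alike, with edgeR and with DESeq2; its interval for Acsbg1 ran from -0.45 to 0.43. The placebo group held 1 mouse with the digit 1, which was assumed to vary like the others.

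**Figure D3:**
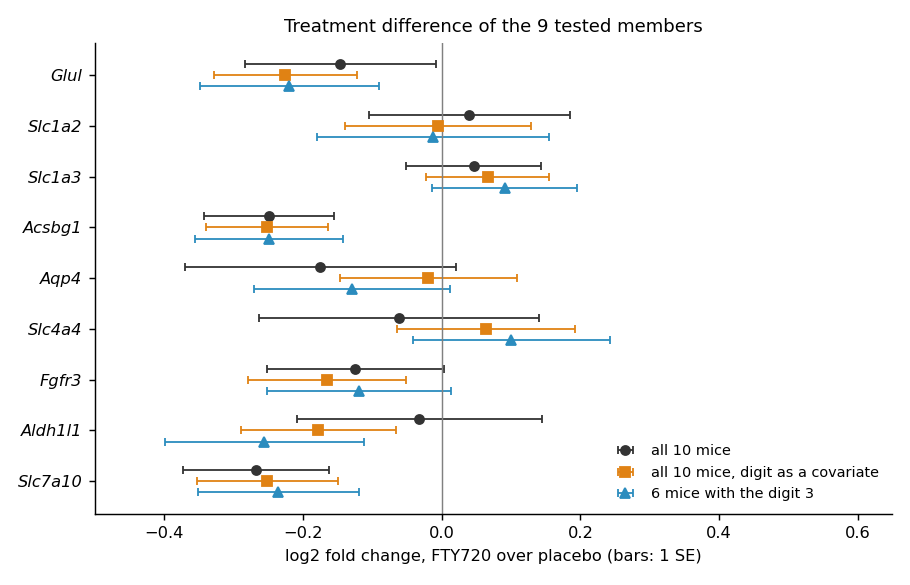
log2 fold change of FTY720 over placebo for the 9 tested genes (bars, 1 SE) over all 10 mice, over all mice with the digit as a covariate, and over the 6 mice with the digit 3. Acsbg1 and Slc7a10 lie between -0.27 and -0.24 in each of the 3 fits, while Aqp4, Slc4a4 and Aldh1l1 shift between fits.

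The other astrocyte genes were compared at the same unadjusted criterion, and their counts depended on whether the digit was in the fit. Over all 10 mice, of the 30 identity genes 1 passed an unadjusted p under 0.05, the prosaposin receptor gene Gpr37l1 (log2 fold change -0.29), and 0 were higher; the median was -0.07. With the digit as a covariate 5 of the 30 were lower and 0 higher (median -0.08), and in the digit 3 mice alone 3 were lower and 0 higher (median -0.11), beside the 7.79% and 4.49% of all genes called lower in those fits. Over all 10 mice without the digit in the fit, Aldoc, the astrocyte aldolase, had the next smallest p after Gpr37l1 (-0.23, unadjusted p = 0.0639 in edgeR). The summed level of the 30 genes was between 5755 and 6391 CPM with FTY720 and between 6331 and 6729 CPM with placebo, so the groups overlapped slightly. Set against the mean log2 CPM of these 30 genes in the same mouse, Acsbg1 remained lower with FTY720 by -0.18 on the log2 scale (exact permutation p = 0.0238) and Slc7a10 by -0.20 (p = 0.0810, exact permutation). In the Bergmann glia list, 1 of 6 tested genes fell, the homeobox gene Hopx (-0.51), and the lipid-binding protein gene Fabp7 was at -0.54 without passing; 3 of the 6 were lower once the digit was a covariate, and 2 of the 6 in the digit 3 mice. Of the 14 reactive astrocyte genes 13 had a fold change above 0 and 2 rose, the oncostatin M receptor gene Osmr (0.75) and the acute-phase gene Serpina3n (0.84), against 1.04% of all tested genes called higher; the median was 0.24, and none of the 14 reached an adjusted p under 0.05. With the digit as a covariate 14 of 14 were above 0 and 2 were called higher, against 4.98% of all genes, while in the digit 3 mice 10 were above and 4 below 0, with 2 called higher (median 0.16) against 2.78%.

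Gene lists around each member's role were compared at the same unadjusted criterion, met by 1.04% of all genes in the higher and 1.57% in the lower direction, with the 2 genes of smallest p named. In the glutamate and glutamine cycle 0 of 15 genes passed (median 0.0067; the neuronal transporter gene Slc1a1 at 0.20 and the glutamate decarboxylase gene Gad2 at 0.18). In the water channel complex of Aqp4 0 of 12 passed (median 0.03; Mlc1 at -0.21). Among the D-serine and glycine genes, the closest to the role of Slc7a10, 0 of 16 passed (median -0.08; the serine hydroxymethyltransferase gene Shmt2 at -0.21 and the glycine transporter gene Slc6a9 at -0.26). Among the acyl-CoA synthetases, the enzyme family of Acsbg1, 0 of 9 tested passed (median 0.01; Acsl4 at 0.19 and Slc27a1 at -0.20). The folate list of Aldh1l1 had 0 of 10 (median -0.02; Mthfd1l at 0.16 and Mthfd2 at -0.10). The bicarbonate list of Slc4a4 had 2 of 13 that rose and 1 that fell (median -0.13), with Slc4a11 at 0.81 and the neuronal exchanger gene Slc4a10 at 0.27. In FGF signaling 2 of 16 fell, the target transcription factor gene Etv4 (-0.44) and the ligand gene Fgf18 (-0.83), with a median of -0.09. Of the stress genes around Gdf15 1 of 11 fell, Ppp1r15a (-0.39), with Trib3 at -1.22 without passing; the median was -0.07. All of these p-values had an adjusted p of 0.99992. With the digit as a covariate the counts were larger in most of these lists, beside 4.98% of all genes called higher and 7.79% called lower. The stress list then had 5 of 11 lower and 0 higher (median -0.12), and the bicarbonate list 4 of 13 higher and 2 lower (median -0.02). The water channel and the D-serine and glycine lists had 2 lower each and 0 higher, the glutamate and the acyl-CoA lists 1 higher and 1 lower each, FGF signaling 1 higher and 2 lower, and the folate list 0. In the digit 3 mice, beside 2.78% of all genes higher and 4.49% lower, the stress list had 2 of 11 lower (median -0.09) and the bicarbonate list 1 of 13 higher and 0 lower (median 0.05). The water channel list had 2 lower, the acyl-CoA and FGF lists 1 lower each, and the glutamate, D-serine and glycine, and folate lists 0 in either direction. None of these genes reached an adjusted p under 0.05.

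Markers of other cells were compared between the treatments at the same unadjusted p under 0.05, a criterion that 1.04% of all genes met in the higher and 1.57% in the lower direction; 0 genes passed after adjustment (smallest adjusted p = 0.99992 in edgeR). Of 10 endothelial genes 9 were above 0 and 4 rose (median 0.40; Ly6c1 at 0.46 and Pecam1 at 0.43), and their summed level was 217.2 to 345.6 CPM with FTY720 and 190.6 to 224.3 CPM with placebo. Of 10 oligodendrocyte genes all were below 0 and 3 fell (median -0.19; Mag at -0.46 and Cnp at -0.35), with sums of 5743 to 6649 and 6524 to 7617 CPM. The mural cell list had 1 of 9 that rose (Rgs5 at 0.54, beside Myh11 at 0.47 without passing), and the choroid plexus and ependyma list 1 of 9 that fell (Foxj1 at -0.38, beside Rarres2 at -0.39 without passing). In the neuron list 0 of 10 passed (Rbfox3 at -0.19 and Nefm at -0.25), as did 0 of 7 oligodendrocyte progenitor genes (Cspg4 at -0.23 and Lhfpl3 at 0.10) and 0 of 10 microglia and macrophage genes (Tmem119 at -0.32 and Itgam at 0.12). With the digit as a covariate 4.98% of all genes were called higher and 7.79% lower. There 8 of 10 endothelial genes were higher (median 0.46) and 4 of 10 oligodendrocyte genes were lower (median -0.17). Of the microglia and macrophage genes 9 of 10 were below 0, 1 of them called (median -0.13). In this fit 2 of 10 neuron, 1 of 7 oligodendrocyte progenitor and 2 of 9 choroid plexus and ependyma genes were lower, and 1 of 9 mural cell genes was higher and 1 lower. In the digit 3 mice 2.78% of all genes were called higher and 4.49% lower. There 6 of 10 endothelial genes were higher, 4 of 10 oligodendrocyte genes were lower, and all 10 microglia and macrophage genes were below 0, with 2 called (median -0.19). Of the other lists there, 2 neuron, 1 oligodendrocyte progenitor and 1 choroid plexus and ependyma gene were lower and 3 mural cell genes were higher. The region lists had 0 of 15 for cerebellum (median -0.32; Barhl1 at -0.83 and Cbln1 at -0.62) and 0 of 12 for cortex and hippocampus (median 0.08; Rasgrf2 at 0.18 and Neurod6 at 0.24) over all 10 mice. Both medians changed sign with the digit as a covariate, to 0.12 for cerebellum with 2 genes higher and -0.06 for cortex and hippocampus with 3 lower. In the digit 3 mice they were 0.12 with 3 higher and -0.12 with 2 lower. No listed marker was at 0 in every mouse, and the part of these lists in the Acsbg1 and Slc7a10 values was not tested.

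The second comparison was of digit 3 (6 mice) over digit 1 (4 mice), and the model held treatment as a covariate. Aqp4 and Slc4a4 were higher, and Aldh1l1 and Glul lower, in the digit 3 mice. At an adjusted p under 0.05, 4 of 9 members passed, 2 higher and 2 lower, against 28.4% of all tested genes, 13.9% higher and 14.4% lower. The digits did not overlap for Aqp4 and Aldh1l1, 2 of 9 members, against 14.2% of all tested genes in either direction. The median log2 fold change of the 9 was -0.01, as over all genes (-0.01). The members thus did not move in one direction between the digits.

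Aqp4 (ENSMUSG00000024411, chromosome 18 from 15389394 to 15403684, minus strand) was at 212.7, 233.4, 184.6, 196.1, 271.9 and 226.1 CPM in F3-609, F3-612, F3-908, P3-612, P3-904 and P3-907. In F1-622, F1-624, F1-918 and P1-623 it was at 132.1, 167.3, 168.3 and 132.8 CPM. Each digit 3 mouse was above each digit 1 mouse, with means of 220.8 ± 30.9 (SD, n = 6) and 150.1 ± 20.4 CPM (n = 4). The log2 fold change was 0.55 ± 0.129 (SE, adjusted p = 0.00854 in edgeR), and the exact permutation p was 0.00476, the smallest possible. Without P1-623, the one placebo mouse with the digit 1, the adjusted p was 0.0797. In the FTY720 mice alone, 3 of each digit, it was 0.45 ± 0.139 (adjusted p = 0.0396 in edgeR).

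Slc4a4 (ENSMUSG00000060961, chromosome 5 from 88886818 to 89239653, plus strand) was at 342.4, 353.5, 296.2, 255.6, 367.6 and 307.7 CPM in the 6 digit 3 mice in the same order, and at 176.9, 262.9, 219.8 and 218.6 CPM in the 4 digit 1 mice. P3-612 was the lowest digit 3 mouse and lay below F1-624, so the digits overlapped by 1 mouse. The log2 fold change was 0.56 ± 0.130 (SE, adjusted p = 0.00814 in edgeR), with an exact permutation p of 0.00952. With a trend on gene length removed from each library it was 0.36 (adjusted p = 0.00299 in edgeR). It was 0.61 ± 0.152 in the FTY720 mice alone (adjusted p = 0.0171 in edgeR).

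Aldh1l1 (ENSMUSG00000030088, chromosome 6 from 90486427 to 90600203, plus strand) went the other way, at 48.2, 53.6, 61.6, 70.6, 55.1 and 69.9 CPM in the digit 3 mice and 89.2, 74.7, 79.7 and 81.8 CPM in the digit 1 mice. The highest digit 3 mouse was P3-612 and the lowest digit 1 mouse F1-624, and the digits did not overlap. The log2 fold change was -0.49 ± 0.111 (SE, adjusted p = 0.00693 in edgeR; exact permutation p = 0.00952), and -0.56 ± 0.133 in the FTY720 mice alone (adjusted p = 0.0145 in edgeR).

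Glul was at 1060.3, 1115, 1355, 1479.5, 1239 and 1406 CPM in the digit 3 mice and 1264, 1472, 1638 and 1707 CPM in the digit 1 mice. The digits overlapped, with F1-622 below F3-908, P3-612 and P3-907 and F1-624 below P3-612. The log2 fold change was -0.31 ± 0.103 (SE, adjusted p = 0.0394 in edgeR), while the exact permutation p was 0.0857. The call was lost under 12 of 23 alternatives, among them without F1-918 (adjusted p = 0.113) and in the FTY720 mice alone (adjusted p = 0.171).

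**Figure D4:**
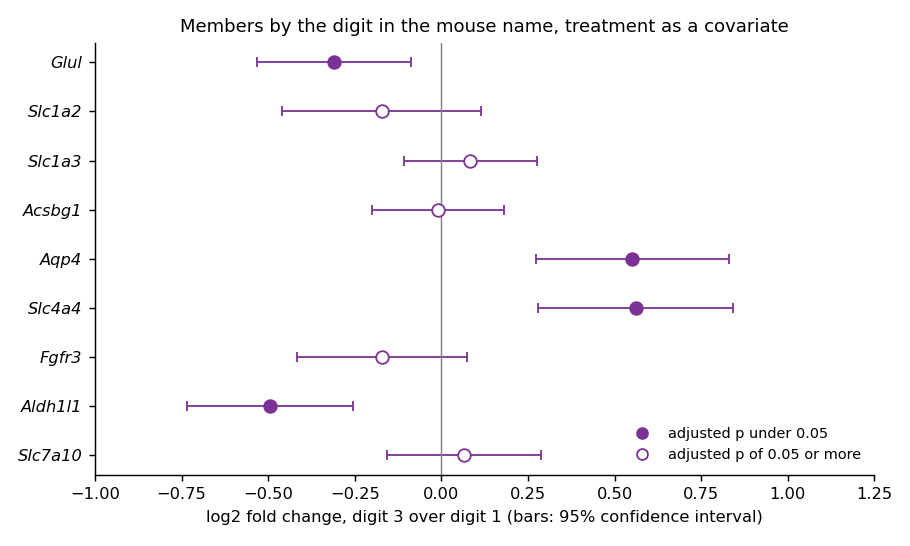
log2 fold change of the digit 3 over the digit 1 mice for the 9 tested genes, with treatment as a covariate; bars are 95% confidence intervals, and filled points have an adjusted p under 0.05 in edgeR. Aqp4 (0.55) and Slc4a4 (0.56) lie to the right of 0, and Aldh1l1 (-0.49) and Glul (-0.31) to the left.

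The other 5 members did not pass. Slc1a2 was at -0.17 (95% interval -0.46 to 0.12), Slc1a3 at 0.08 (-0.11 to 0.28), Slc7a10 at 0.07 (-0.16 to 0.29), Acsbg1 at -0.01 (-0.20 to 0.18) and Fgfr3 at -0.17 (-0.42 to 0.07). With a trend on gene length removed from each library Slc1a2 passed (-0.42, adjusted p = 0.00050 in edgeR) and Glul did not (-0.23, adjusted p = 0.0636), so that 4 members were again called. Slc7a10 was at 0.23 under that alternative and at 0.18 relative to the 30 astrocyte genes, without passing in either case.

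The glutamate transporters were also compared as a ratio within each mouse, which does not depend on library scaling. Per 100 counts of Slc1a2 there were 26.0, 23.8, 24.5 and 24.6 counts of Slc1a3 in F1-622, F1-624, F1-918 and P1-623. In F3-609, F3-612, F3-908, P3-612, P3-904 and P3-907 there were 30.6, 27.6, 33.0, 33.0, 24.5 and 28.4. Of the digit 3 mice 5 were above every digit 1 mouse, and P3-904 lay within the digit 1 range. The mean log2 ratio was -1.77 ± 0.167 (SD, n = 6) with the digit 3 and -2.02 ± 0.0545 (n = 4) with the digit 1, a difference of 0.25 (two-sided exact permutation p = 0.0333). Leaving out 1 mouse at a time gave differences from 0.21 to 0.30, and p rose above 0.05 without F1-624 (0.0714), F1-918 (0.0714) or P1-623 (0.0595, all by exact permutation). FTY720 and placebo mice had mean log2 ratios of -1.87 ± 0.185 (n = 6) and -1.87 ± 0.205 (n = 4), with an exact permutation p of 0.986.

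**Figure D5:**
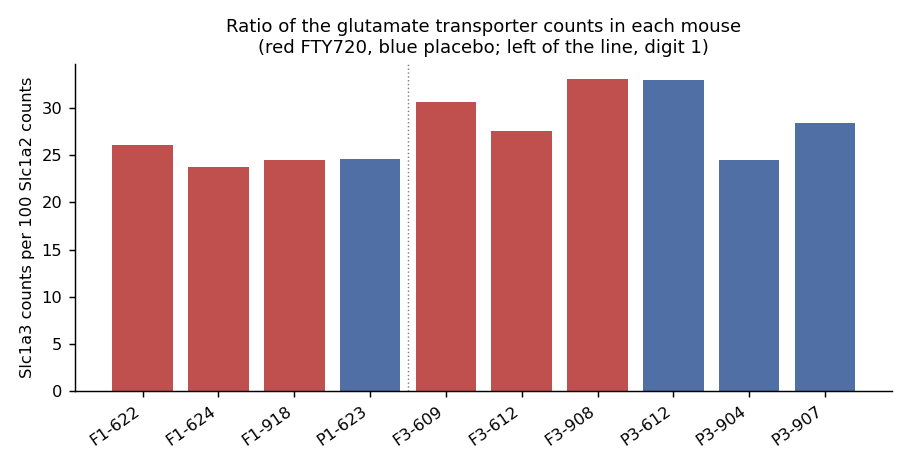
Counts of Slc1a3 per 100 counts of Slc1a2 in each mouse, digit 1 on the left and digit 3 on the right of the dotted line (red, FTY720; blue, placebo). The digit 1 mice lie between 23.8 and 26.0, and 5 of the 6 digit 3 mice between 27.6 and 33.0.

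Other astrocyte genes were compared between the digits at an adjusted p under 0.05, which 13.9% of all tested genes passed in the higher and 14.4% in the lower direction. Of the 30 identity genes 4 were higher and 4 lower (median -0.09), a share each way close to that over all genes, led by the phagocytosis bridging gene Mfge8 (-0.88) and the sodium pump subunit gene Atp1b2 (0.43). Of 6 Bergmann glia genes 2 were higher and 1 lower (median 0.35), with Gdf10 at 1.64 and the hedgehog receptor gene Ptch1 at 0.77. The summed Bergmann glia level was 242.5 to 265.1 CPM in the digit 3 mice and 188.1 to 202.5 CPM in the others. Ptch1 had the highest level of this list, at 84.7 to 154.3 CPM and 60.4 to 88.6 CPM in the same order. The ranges of Ptch1, Hopx, Fabp7, Gli1 and Sox2 overlapped between the digits. Gdf10 itself ranged from 26.1 to 38.8 CPM in the digit 3 mice, above the 9.22 to 12.4 CPM of the digit 1 mice. Among the 14 reactive astrocyte genes 0 passed, with Gfap (-0.54, adjusted p = 0.0529 in edgeR) and Steap4 (1.22, adjusted p = 0.0750) nearest; 2 of the 14 had an unadjusted p under 0.05.

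The role lists were compared between the digits at an adjusted p under 0.05, beside the same 13.9% of all genes higher and 14.4% lower. In the glutamate and glutamine cycle 5 of 15 were higher and 2 lower (median 0.06), with the Purkinje cell transporter gene Slc1a6 at 1.46 and the vesicular transporter gene Slc17a7 at -0.68. Slc17a7 is also in the cortex and hippocampus marker list. In the water channel complex 2 of 12 were higher and 3 lower (median 0.06), with the dystrobrevin gene Dtnb at -0.40, opposite to Aqp4. Among D-serine and glycine genes 2 of 16 were higher and 4 lower (median -0.16), with the glycine neuron transporter gene Slc6a5 at 7.09 and the D-amino acid oxidase gene Dao at 5.13. In the digit 1 mice Slc6a5 was at 0.12 to 0.53 CPM and Dao at 0.36 to 0.52 CPM, so the size of these folds is uncertain. Of the acyl-CoA synthetases 3 of 9 were lower (median -0.06; Acsl5 at -0.46 and Slc27a4 at -0.38), and of the folate genes 1 of 10 was higher (median 0.05; the mitochondrial relative Aldh1l2 at 1.11, with Mthfd1 at -0.17 without passing). In the bicarbonate list 4 of 13 were higher (median 0.16), with the Purkinje cell gene Car8 at 4.60 and the carbonic anhydrase gene Car4 at 0.70. Car8 is also in the cerebellum marker list. In FGF signaling 6 of 16 were higher and 2 lower (median 0.07; Fgf1 at 0.66 and the feedback phosphatase gene Dusp6 at -0.73), and of the stress genes 1 of 11 was higher and 4 lower (median -0.37; Vldlr at 0.51 and Atf5 at -0.58).

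Markers of other cells and of regions differed between the digits beside the members. The median log2 fold change was 2.52 over the 15 cerebellum markers, with the granule cell genes Gabra6 at 10.3 and Cbln3 at 8.76, and -0.65 over the 12 cortex and hippocampus markers, with Lhx2 at -0.81 and Emx1 at -1.25. The latter summed to 2499 to 3304 CPM in the digit 3 mice and 3926 to 5000.2 CPM in the others. Gabra6 was at 0.06 to 0.24 CPM and Cbln3 at 0.41 to 1.14 CPM in the digit 1 mice, so the size of their folds is uncertain. At an adjusted p under 0.05, 13.9% of all genes were higher and 14.4% lower. Of 10 microglia and macrophage genes 7 were lower (median -0.51; Tmem119 at -0.90 and Csf1r at -0.52), and of 10 endothelial genes 2 were higher (median 0.33; Ocln at 0.74 and Slco1a4 at 0.72). The neuron list had 1 higher and 3 lower of 10 (Syn1 at -0.40 and Eno2 at -0.41), the oligodendrocyte list 2 and 1 of 10 (Ermn at 0.60 and Aspa at 0.51), and the oligodendrocyte progenitor list 2 and 2 of 7 (Cspg5 at -0.78 and Vcan at 0.47). Of the mural cell genes 2 of 9 were lower (Vtn at -0.51 and Kcnj8 at -0.69), as were 3 of 9 choroid plexus and ependyma genes (Ccdc153 at -0.91 and Rarres2 at -0.67). The part of the region markers in the Aqp4, Slc4a4, Aldh1l1 and Glul values was not tested, and with all 6 digit 3 mice above all 4 digit 1 mice in the summed cerebellum markers, digit and region content cannot be told apart here.

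Across the 10 mice, the tested protein-coding genes with the mean-centred log2 CPM most like that of Slc1a2 were the dynein heavy chain gene Dync1h1, Tbc1d5 and Btrc, with root mean square differences of 0.04, 0.05 and 0.06, beside a median of 0.34 over 14783 genes. For Slc1a3 they were Purb, Lmbrd1 and Gucy1a1, with differences of 0.05 each, beside a median of 0.28. These are descriptions over 10 libraries that share their sequencing and their split by digit.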

How the data were processed

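Brain RNA of 10 Slc20a2-HO mice, 6 given FTY720 and 4 placebo, was measured by RNA-seq, and groups were taken from the treatment label. The authors deposited whole-number counts per gene, without normalization, and FPKM values made from them; the submitters' processing notes name CASAVA 1.8, fastp, HISAT2 2.0.5, featureCounts 1.5.0-p3 and DESeq2 1.20.0 with GRCm38/mm10. The annotation release and strand setting are not given in the sources used here, so overlapping genes are uncertain. The gene length column was used to remove length trends.

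After filterByExpr and TMM scaling, the quasi-likelihood test of edgeR 4.0.16 in R 4.3.3 compared the groups without a covariate, called at an unadjusted p under 0.05 (the study's threshold, here over all genes and not protein-coding genes alone), with Benjamini-Hochberg adjusted p over all genes; and the digit 3 against the digit 1 with treatment as a covariate, called at an adjusted p under 0.05. The SE is the log2 fold change over the square root of F. Single genes were also compared by two-sided exact permutation of log2 CPM (prior count 2), and ratios used counts + 0.5. P-values measure the spread between mice, 1 library each. Counting error is larger where counts are few. Slc7a10 had 360 to 631 counts per mouse and Gdf15 0 to 6, and some listed genes lay near or below 1 CPM. No per-sample column was left out.

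Named were the 10 members, the 2 genes of smallest p of each of 20 lists (1 gene is not reported here), and the 3 genes most like Slc1a2 and Slc1a3; Lrp3 and Gdf10's levels were added after their values were seen. Members and lists were chosen with earlier results of these data known. Alternatives were RLE and upper-quartile scaling, DESeq2 1.42.0, limma 3.58.1 (voom, and log2(FPKM + 0.1) and log2(FPKM + 1)), no filter, at least 10 counts in every mouse, a gene length trend removed (lowess span 0.3), digit or leading digit of the mouse number as a covariate, each mouse left out, and, added after seeing the data, levels relative to 30 astrocyte genes. The pipeline was tested on simulated data. Promoters came from RefSeq (GRCm38.p6), where 9 of 10 members have an entry.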

Additional observations from a re-analysis of the deposited data

How the results depend on the processing

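Of 513 alternatives over single members, 456 kept direction and side of the threshold, 26 kept the direction but not the call, 5 gained a call and 26 changed direction, all among differences that were not called. The number of members called for FTY720 was 0 without a filter on low counts, 1 (Acsbg1) with a gene length trend removed and 3 with the digit as a covariate, and it ranged from 0 (without P3-907) to 2 when 1 mouse was left out. In the digit 3 mice it ranged from 0 (without F3-609, F3-612 or P3-907) to 2 (without F3-908 or P3-904), and without a filter the 1 call was Gdf15, which is at 0 in the 3 FTY720 libraries of that fit, instead of Acsbg1. For the digits it ranged from 2 (without P1-623) to 4. The interaction gave 0 calls in all 6 alternatives run. The cause of these shifts was not tested.

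Directions that changed were as follows, as log2 values. For FTY720, Slc1a2 was at -0.022 with the length trend removed, at -0.0053 with the digit as a covariate and from -0.066 to 0.13 when 1 mouse was left out. Slc1a3 was at -0.0067 with the length trend removed. Aldh1l1 was at 0.026 relative to the 30 astrocyte genes and from -0.13 to 0.061 when 1 mouse was left out. Slc4a4 was at 0.064 with the digit as a covariate, at 0.0019 relative to the 30 astrocyte genes and from -0.17 to 0.079 when 1 mouse was left out. In the digit 3 mice, leaving 1 out gave -0.15 to 0.15 for Slc1a2 and -0.013 to 0.24 for Slc4a4. Between the digits, Slc1a3 was at -0.062 with the length trend removed. Acsbg1 was at 0.0092 with upper-quartile scaling, 0.0082 with at least 10 counts in every mouse, 0.054 with the length trend removed, 0.054 without a treatment term, 0.0069 in the FTY720 mice alone, 0.093 relative to the 30 astrocyte genes, and from -0.054 to 0.037 when 1 mouse was left out. The log2 ratio of Slc1a3 to Slc1a2 for FTY720 minus placebo was 0.093 in the digit 3 mice and from -0.055 to 0.089 when 1 mouse was left out; for the digits it was 0.21 to 0.30.

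Over all genes, the 461 with an unadjusted p under 0.05 for FTY720 became 1117 without a filter, 2256 with the digit as a covariate and 281 to 984 with 1 mouse left out (without P3-907 and P3-904), and the 5010 between the digits became 2913 in the FTY720 mice alone and 2593 to 6046 with 1 mouse left out (without P1-623 and P3-612). In the digit 3 mice 1283 became 2340 without a filter and 388 to 3896 with 1 mouse left out (without F3-609 and P3-904). The 0 genes past an adjusted p under 0.05 became 26 for the interaction without a filter, and in the digit 3 mice 134 without a filter and 5 with DESeq2. No paired analysis was possible because the groups share the mouse number 612 and no other. With 6 and 4 mice, differences of the size seen for Slc1a2 or Fgfr3 were within the spread between mice, and Gdf15 was too shallow to compare.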
